A study of Rattus norvegicus with 6 samples.

Results

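The genes that carry pyruvate into the mitochondrion, convert it to acetyl-CoA and run the tricarboxylic acid (TCA) cycle were followed in cultured rat hippocampal cells before and after insulin. The set was chosen by symbol: 33 genes were listed for their roles, and all 33 were found among the 37183 symbols of the deposited table. It comprised 3 genes of pyruvate entry, 5 subunits of the pyruvate dehydrogenase complex, its 4 kinases, its 2 phosphatases, 16 mitochondrial enzymes or subunits of the cycle and 3 cytosolic enzymes. The kinases were contrasted with 25 enzymes, which are the complex subunits, pyruvate carboxylase and the cycle and cytosolic enzymes.

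Total RNA of primary rat hippocampal astrocytes and hippocampal neurons was sequenced after ribosomal RNA depletion, with 1 library for each of 6 groups. Each cell type had a control library, called saline in its title and untreated at 0 min in its other labels, and libraries after 6 h and 12 h of 200 nM insulin. Cultures received new medium 4 h before treatment, for astrocytes one with 2% serum and 5 mM glucose and for neurons serum-free Neurobasal with insulin-free B27. Strain, age and animal numbers were not stated in the labels. No group had a second library, so no test, error or p-value is given for any difference, and insulin cannot be told apart from time in the changed medium.

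Levels are FPKM, that is fragments scaled to transcript length and library size, which may be compared between genes. A difference is the log2 value of one library minus that of another. Genes with values in each of the compared libraries and 1 FPKM or more in one of them were compared. A difference of 1 or more in size, that is 2-fold, stands in for a call, and no gene short of it is said to have risen or fallen.

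Between 22891 and 25528 symbols had a value in a library. The labelled cell types were checked against marker genes in the controls. The library labelled neuron was the higher one for 9 of 10 neuron markers measured in both, but so were 10 of 11 astrocyte markers and 5 of 7 oligodendrocyte lineage markers. In the astrocyte and neuron controls, astrocyte markers summed to 55.3 and 373 FPKM. Summed smooth muscle and pericyte markers stood at 425 and 4.52 FPKM, and summed fibroblast markers at 94.4 and 0.0697 FPKM. The excitatory neuron marker Slc17a7 and the oligodendrocyte factor Olig2 had no value in the astrocyte control, and Slc17a7 was at only 0.00241 FPKM in the neuron one. Microglial markers summed to 4.14 and 0.117 FPKM, with Tmem119 alone at 4.09 FPKM in the astrocyte control, and endothelial markers to 0.00937 and 0.0231 FPKM. The libraries are therefore called astrocyte-labelled and neuron-labelled.

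Pyruvate made by glycolysis enters the mitochondrion through a carrier built of MPC1 and MPC2. Pyruvate dehydrogenase then commits it to acetyl-CoA, and this step is switched off when the kinases PDK1 to PDK4 phosphorylate the E1 alpha subunit and on again when the phosphatases PDP1 and PDP2 remove the phosphate. In brain, neurons are known for high oxidative use of pyruvate and astrocytes for glycolysis and for pyruvate carboxylase, which makes oxaloacetate for glutamine synthesis. In liver and muscle, fasting is known to raise Pdk4 and Pdk2, and insulin to lower them.

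The sequences just before the start of the kinase genes are shown because Pdk1 and Pdk2, the most abundant kinases here, differed from control in opposite directions, while Pdk4 was barely present. Each runs 5′ to 3′ from 250 bases before to 50 bases after the annotated start, from RefSeq on the build GRCr8, while the deposited values were made on another build. Capitals mark every match of 6 short motifs on either strand: the GC box GGGCGG, the CCAAT box CCAAT, the hypoxia response core ACGTG, the FoxO core TGTTTAC, the estrogen-related receptor core AAGGTCA and the NRF1 core TGCGCA.
Pdk1 (chr3:77113264-77113563, + strand): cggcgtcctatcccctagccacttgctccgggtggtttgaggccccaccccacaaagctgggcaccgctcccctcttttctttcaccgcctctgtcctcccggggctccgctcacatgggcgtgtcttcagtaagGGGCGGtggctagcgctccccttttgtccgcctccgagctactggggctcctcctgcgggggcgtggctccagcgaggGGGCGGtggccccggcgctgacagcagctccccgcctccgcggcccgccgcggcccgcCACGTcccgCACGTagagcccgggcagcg
Pdk2 (chr10:80483863-80484162, - strand): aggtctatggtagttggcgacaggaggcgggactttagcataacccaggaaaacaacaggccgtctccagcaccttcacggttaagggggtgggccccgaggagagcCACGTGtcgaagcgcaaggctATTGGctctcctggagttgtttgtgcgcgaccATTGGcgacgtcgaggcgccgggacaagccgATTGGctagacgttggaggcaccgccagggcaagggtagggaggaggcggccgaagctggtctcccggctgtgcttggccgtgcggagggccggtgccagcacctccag
Pdk4 (chr4:34568280-34568579, - strand): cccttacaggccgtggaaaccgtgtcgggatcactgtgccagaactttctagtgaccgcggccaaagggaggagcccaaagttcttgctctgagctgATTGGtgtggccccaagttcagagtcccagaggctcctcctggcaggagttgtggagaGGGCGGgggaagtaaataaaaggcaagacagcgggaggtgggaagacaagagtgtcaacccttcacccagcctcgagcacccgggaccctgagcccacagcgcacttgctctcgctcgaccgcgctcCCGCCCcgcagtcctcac

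In the window of Pdk1 there were 2 GC boxes and 2 hypoxia response cores, the latter after the start, at bases 22 and 31. The Pdk2 window held 3 CCAAT boxes, 59, 90 and 122 bases before the start. Its hypoxia response core was matched on both strands by overlapping letters, from 143 and 142 bases before the start. The Pdk4 window held 2 GC boxes and 1 CCAAT box, and no ACGTG. Of the 33 members, 29 had a sequence in the table. ACGTG was found in 8 of these 29, among them Pdk1, Pdk2 and Pdk3, and in 19.3% of all 33469 promoter windows. The FoxO core was found in 1 member, Pdhb, and in 3.78% of all windows, and the estrogen-related receptor core in 1, Sdhd, and in 4.61%. GC boxes were found in 20 members (33.1% of all windows), CCAAT boxes in 16 (37.5%) and the NRF1 core in 5 (7.24%). A match describes the letters and is no measured binding site.

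All 33 members had a value in every library, and 20 of them were at 1 FPKM or more in all 6 libraries. Another 4 (Pdk1, Pdk2, Suclg1 and Fh) reached 1 FPKM in some libraries, and 9 (Pc, Dlat, Pdhx, Pdk3, Pdk4, Aco1, Ogdh, Sucla2 and Suclg2) in none. The most abundant member was Pdha1 in the 3 astrocyte-labelled libraries, at 9.47 to 13.1 FPKM, and Idh3B in the 3 neuron-labelled ones, at 10.5 to 11.9 FPKM. The set as a whole was expressed at modest levels, with a median member between 1.86 and 2.34 FPKM per library.

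**Figure D1:**
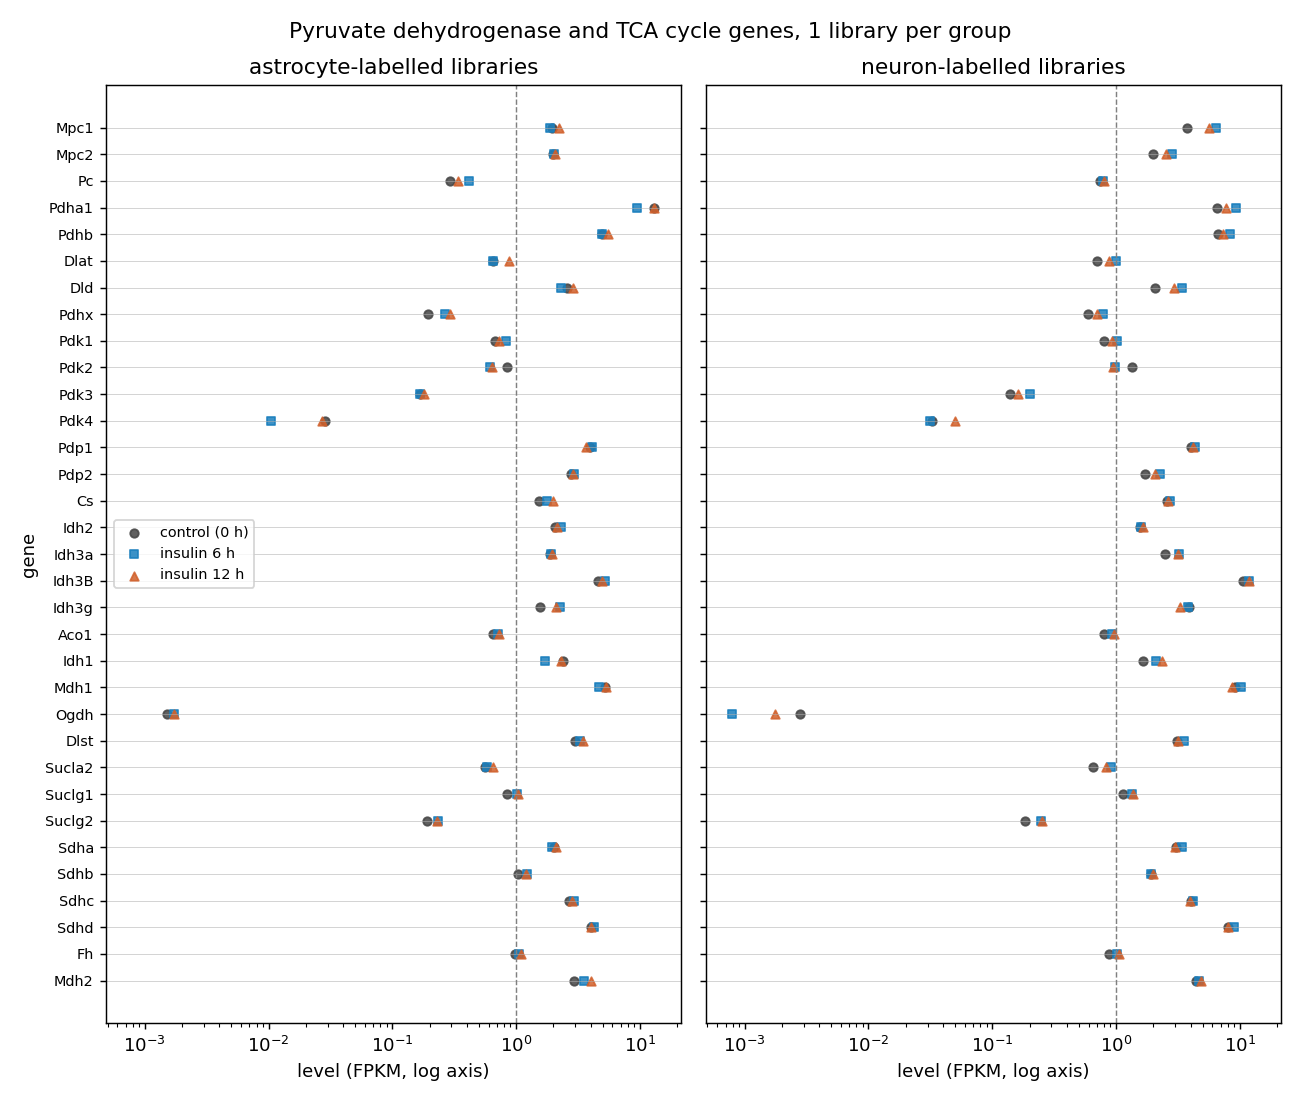
Level of each of the 33 genes in FPKM (log axis) in the astrocyte-labelled libraries (left) and the neuron-labelled libraries (right), with 1 point per library and a dashed line at 1 FPKM. Most genes lie between 1 and 12 FPKM, Pdk4 lies at or below 0.0498 FPKM and Ogdh at or below 0.00282 FPKM.

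The control libraries were compared first, to show how the pathway stood in each labelled culture before insulin. Subunits of isocitrate dehydrogenase and succinate dehydrogenase were lower in the astrocyte-labelled control. The E1 alpha gene Pdha1 was higher, by a size that is uncertain for a reason given below. Of 22 members compared, 6 were above 0 and 16 below, where 45.9% of all 7146 genes were above 0. Pdk2 and Suclg1 passed the level filter through the neuron-labelled control alone, so the filter fixed their sign below 0. The members' median difference was -0.51, against -0.10 for all genes. With no floor, 9 of 33 members were above 0, where 46.8% of all genes were. The members' median was then -0.41, against -0.10 for all genes. Of the 22 compared, only 3 reached 2-fold, all lower in the astrocyte-labelled control. Over all genes, 40.6% did so in either direction and 21.9% in that one. The share of members at that size is thus under the background. As the cultures hold mixed cells, fewer cells of a type and less RNA per cell cannot be told apart. Beside this comparison stand the marker sums above, and their part in it was not tested.

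The 3 members were Idh3B and Idh3g, subunits of the NAD-linked isocitrate dehydrogenase, and Sdhd, a membrane anchor of succinate dehydrogenase. Levels are given for the astrocyte-labelled control first. Idh3g stood at 1.57 and 3.87 FPKM, a difference of -1.30. Idh3B stood at 4.57 and 10.5 FPKM (-1.20), and Sdhd at 3.99 and 8.07 FPKM (-1.02). The catalytic subunit gene Idh3a was nearer between the controls, at 1.87 and 2.48 FPKM. All 4 succinate dehydrogenase genes were below 0, from -0.59 for the flavoprotein gene Sdha to -1.02 for Sdhd. Citrate synthase (Cs), which opens the cycle, was at 1.54 and 2.56 FPKM, and the malate dehydrogenase genes Mdh1 (cytosolic) and Mdh2 (mitochondrial) differed by -0.81 and -0.61. With log2(FPKM + 1), only 1 member reached 2-fold.

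Members higher in the astrocyte-labelled control were fewer. Pdha1 differed by 0.99, at 13.1 and 6.59 FPKM, just short of 2-fold. When centred on genes at 5 FPKM or more it was past that size, at 1.03, and Sdhd was short of it, at -0.97. The row Pdha1l1, by its name a copy of Pdha1, was at 52.1 and 37.8 FPKM, a smaller difference of 0.46. Reads could be split between the 2 rows, so the size of the Pdha1 difference is uncertain. The phosphatase gene Pdp2 was at 2.78 and 1.71 FPKM, Idh1, the cytosolic NADP-linked isocitrate dehydrogenase, at 2.38 and 1.64 FPKM, and its mitochondrial counterpart Idh2 at 2.05 and 1.56 FPKM. Dld, the E3 subunit that pyruvate dehydrogenase shares with other complexes, was at 2.59 and 2.06 FPKM. NADP-linked and NAD-linked isocitrate dehydrogenase genes thus stood on opposite sides of 0. Pyruvate carboxylase (Pc) was below 1 FPKM in both, at 0.291 and 0.741 FPKM, and so was Pdhx, which tethers E3 to the core, at 0.195 and 0.593 FPKM. In both cases the astrocyte-labelled control was the lower one, with differences of -1.35 and -1.60.

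**Figure D2:**
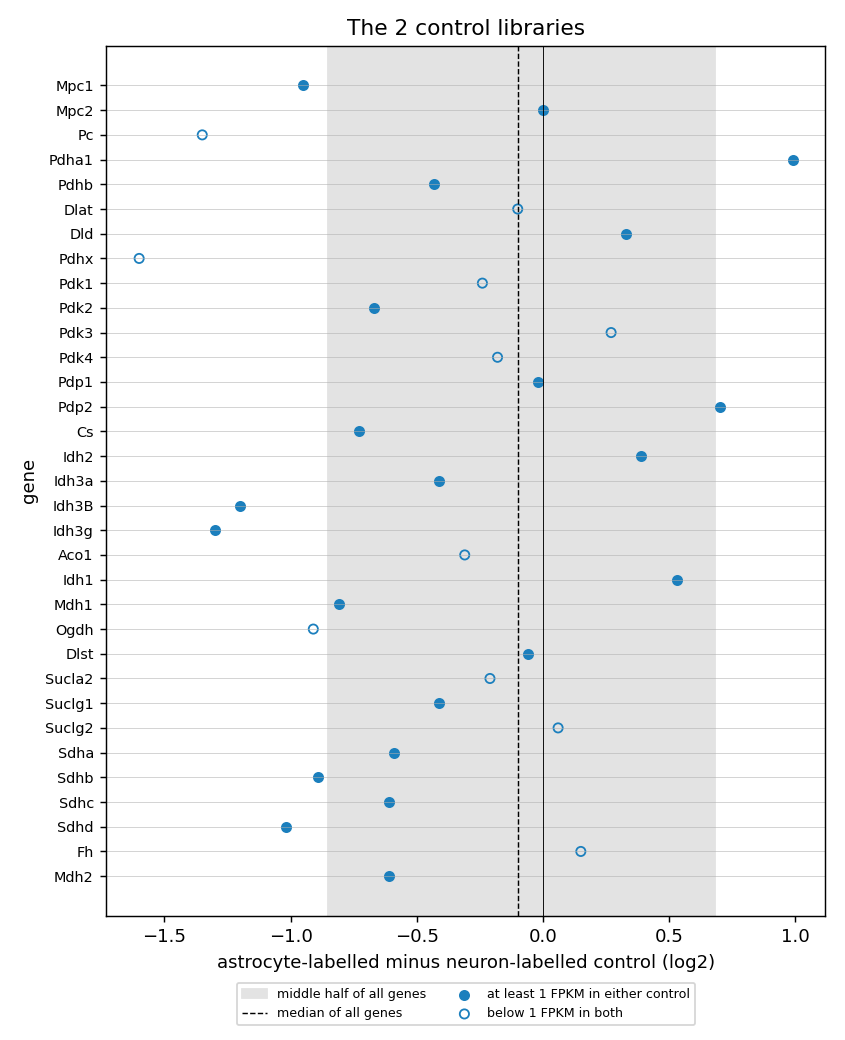
Difference between the astrocyte-labelled and the neuron-labelled control (log2) for each of the 33 genes, 1 library each. The grey band spans the middle 50% of all genes, the dashed line is their median of -0.10, filled points are genes at 1 FPKM or more in either control and open points are genes below it in both. Idh3g and Idh3B are the lowest filled points and Pdha1 is the highest.

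The next comparison asked what the pathway did after insulin in the astrocyte-labelled cultures. No member reached 2-fold among the 22 compared at either time, where 1.93% of 6206 genes did at 6 h and 1.53% of 6221 at 12 h. The members' median was 0.08 at 6 h and 0.10 at 12 h, and that of all genes 0.09 and 0.10. At 6 h 16 members were above 0, where 63.9% of all genes were, and at 12 h 19 were, where 67.0% were. Among them Suclg1 and Fh passed the level filter only after insulin, which fixed their sign. Over all 33 members at any level the medians were 0.08 and 0.15, where those of all genes were 0.16 and 0.18. The set as a whole thus lay at the level of the background. More symbols had a value in the insulin libraries than in the control (23814 and 23898 against 22891), and the part of this in the shift of all genes was not tested. Centring on genes at 5 FPKM or more moved differences down by 0.08 at 6 h and 0.09 at 12 h and turned the sign of 6 and 8 of the 22 members, all close to 0. The 6 h and 12 h differences share the control library.

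Among entry and dehydrogenase genes at 1 FPKM or more, differences at 6 h ran from 0.01 for Mpc2 down to -0.46 for Pdha1. Levels follow the order control, 6 h and 12 h from here on. Mpc1 was at 1.94, 1.86 and 2.20 FPKM, and Mpc2 at 2.00, 2.01 and 2.06 FPKM. Pdha1 was at 13.1, 9.47 and 13.0 FPKM, so that the 6 h library stood apart (-0.46) and the 12 h library did not (-0.01). A row named Pdha1l1, by its name a copy of Pdha1, was at 52.1, 40.2 and 52.8 FPKM, and reads of the pair could be split between them, so the value of Pdha1 is uncertain. With the FPKM of both rows summed, an alternative added after the data had been seen, the differences were -0.39 and 0.01. Pdhb, the E1 beta subunit, was at 4.91, 4.91 and 5.54 FPKM, and Dld at 2.59, 2.29 and 2.87 FPKM. All 3 complex subunits at 1 FPKM or more were below the all-gene median at 6 h, and 2 of them above it at 12 h. The E2 gene Dlat, which passes the acetyl group to coenzyme A, was at 0.656, 0.653 and 0.872 FPKM, highest at 12 h. Below 1 FPKM, Pc was at 0.291, 0.414 and 0.338 FPKM, differences of 0.51 and 0.22, and Pdhx at 0.195, 0.264 and 0.292 FPKM, differences of 0.44 and 0.58. These 2 low-level genes thus lay above control at 6 h.

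Of the 13 mitochondrial cycle genes compared, 12 were above 0 at 6 h and 13 at 12 h, beside the shares of 63.9% and 67.0% over all genes. Against the all-gene median, 10 were above at 6 h and 8 at 12 h. With no floor, 15 and 16 of all 16 such genes were above 0, where 66.5% and 68.4% of all genes were. Idh3g was at 1.57, 2.26 and 2.11 FPKM, with differences of 0.53 and 0.43, both at or past the 90th percentile of all genes (0.44 and 0.40). Mdh2, the last enzyme of the cycle, was at 2.91, 3.53 and 4.01 FPKM and differed by 0.28 and 0.46. Citrate synthase was at 1.54, 1.78 and 1.97 FPKM. All 5 genes from citrate to oxoglutarate were above 0 at both times, but when centred Idh3a was below 0 at both and Idh2 at 12 h. Suclg1, the alpha subunit of succinyl-CoA ligase, was at 0.845, 1.01 and 1.03 FPKM, so it entered through the insulin libraries. So did the fumarase gene Fh, at 0.980, 1.05 and 1.10 FPKM. The filter thus fixed the sign of both, and both count among the 13 genes compared. Idh1 went the other way at 6 h, at 2.38, 1.71 and 2.30 FPKM, a difference of -0.48 that was the lowest of the 22 members. The succinate dehydrogenase genes differed by -0.06 to 0.24 at 6 h and by 0.03 to 0.21 at 12 h, inside the middle 50% of all genes at both times. Centring took Sdhd to the other side of 0 at 6 h, and Sdha, Sdhc and Sdhd at 12 h.

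In the neuron-labelled cultures Mpc1 and Mpc2, which form the carrier, and the complex subunits Pdha1, Pdhb and Dld lay above control as deposited, by 0.34 to 0.79 at 6 h and by 0.14 to 0.59 at 12 h. At 12 h Pdhb centred to 0.00, and Pdha1 was below 0, at -0.11, when summed with its copy Pdha1l1. Of the 13 mitochondrial cycle genes compared, the count above the median of all genes was 7 for 6 h and 4 for 12 h. No member reached 2-fold among 24 compared at 6 h and 23 at 12 h, where 2.89% of 6610 and 3.84% of 6641 genes did. The members' median was 0.18 at 6 h against 0.14 for all genes, and 0.13 at 12 h against 0.14. Above 0 were 21 members at 6 h and 18 at 12 h, where 68.1% and 66.1% of all genes were. Fh and, at 6 h, Pdk1 passed the level filter only after insulin, and Pdk2 only in its control. The filter thus fixed their signs, and they are counted among the members compared. Over all 33 members at any level the medians were 0.21 and 0.20, where all genes had 0.29 and 0.28. Here too more symbols had a value in the insulin libraries than in the control (25510 and 25528 against 23927). The part of this in the shift of all genes was not tested. At the smaller size of 1.5-fold (0.58), 2 members were higher at 6 h, Mpc1 and Dld, where 8.55% of all genes were, and 1 at 12 h, Mpc1, where 10.9% were. Centred on genes at 5 FPKM or more, which moved differences down by 0.13 and 0.14, Mpc1 was at 0.66 and 0.44 and Dld at 0.59 and 0.37. Centring turned the sign of 5 of 24 and 8 of 23 members, among them Cs, Idh2, Mdh2 and Pdp1 at both times.

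Mpc1 was at 3.74, 6.45 and 5.62 FPKM. Its differences of 0.79 and 0.59 were the highest among members at 1 FPKM or more, past the 90th percentile of all genes at 6 h (0.54) and within it at 12 h (0.61). Below that level Pdk4 differed by 0.61 at 12 h, at 0.0326 and 0.0498 FPKM. Mpc2 was at 2.00, 2.84 and 2.55 FPKM, so both partners of the carrier were above control. Dld was at 2.06, 3.38 and 2.93 FPKM and differed by 0.72 and 0.51. Pdha1 was at 6.59, 9.32 and 7.69 FPKM, a difference of 0.50 and 0.22. The row Pdha1l1 was at 37.8, 39.3 and 33.4 FPKM. When the FPKM of both rows was summed, the Pdha1 difference was 0.13 at 6 h and -0.11 at 12 h, so its direction at 12 h depends on that copy. Pdhb was at 6.62, 8.39 and 7.30 FPKM, the low-level Dlat at 0.702, 0.998 and 0.880 FPKM, and Pdhx at 0.593, 0.778 and 0.698 FPKM. In all 5 subunit rows the order was the same, with the control lowest and the 6 h library highest. The row Pdha1l1 was instead lowest at 12 h. Both differences share the control, and the share of all genes with that order was not counted. Pyruvate carboxylase, the other fate of pyruvate in the mitochondrion, was at 0.741, 0.779 and 0.806 FPKM.

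Within the cycle, Idh3a was at 2.48, 3.22 and 3.17 FPKM, while its partner Idh3g was at 3.87, 3.80 and 3.31 FPKM and Idh3B at 10.5, 11.9 and 11.9 FPKM. As deposited, Idh3g lay below 0 (-0.03 and -0.23) and Idh3a and Idh3B above it, all short of 2-fold and Idh3g close to 0 at 6 h. Idh1 was at 1.64, 2.12 and 2.34 FPKM, differences of 0.37 and 0.51. Citrate synthase was nearly level at 2.56, 2.74 and 2.62 FPKM, and Idh2 at 1.56, 1.58 and 1.65 FPKM. The 4 succinate dehydrogenase genes differed by -0.01 to 0.17 at 6 h and by -0.03 to 0.04 at 12 h, and all 4 lay below the all-gene median at 12 h. Fumarase (Fh) was at 0.883, 1.02 and 1.05 FPKM, and so entered through the insulin libraries, and Mdh2 at 4.44, 4.66 and 4.86 FPKM. Dlst, the E2 subunit of oxoglutarate dehydrogenase, was at 3.11, 3.53 and 3.19 FPKM. Both beta subunit genes of succinyl-CoA ligase, Sucla2 of the ATP form and Suclg2 of the GTP form, were below 1 FPKM, at 0.647, 0.914 and 0.823 FPKM and at 0.184, 0.248 and 0.254 FPKM. Summed smooth muscle and pericyte markers were at 4.52, 6.72 and 10.6 FPKM in the same 3 libraries, summed neuron markers at 69.3, 72.8 and 63.2 FPKM and summed astrocyte markers at 373, 388 and 349 FPKM. The part of these markers in the differences was not tested.

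**Figure D3:**
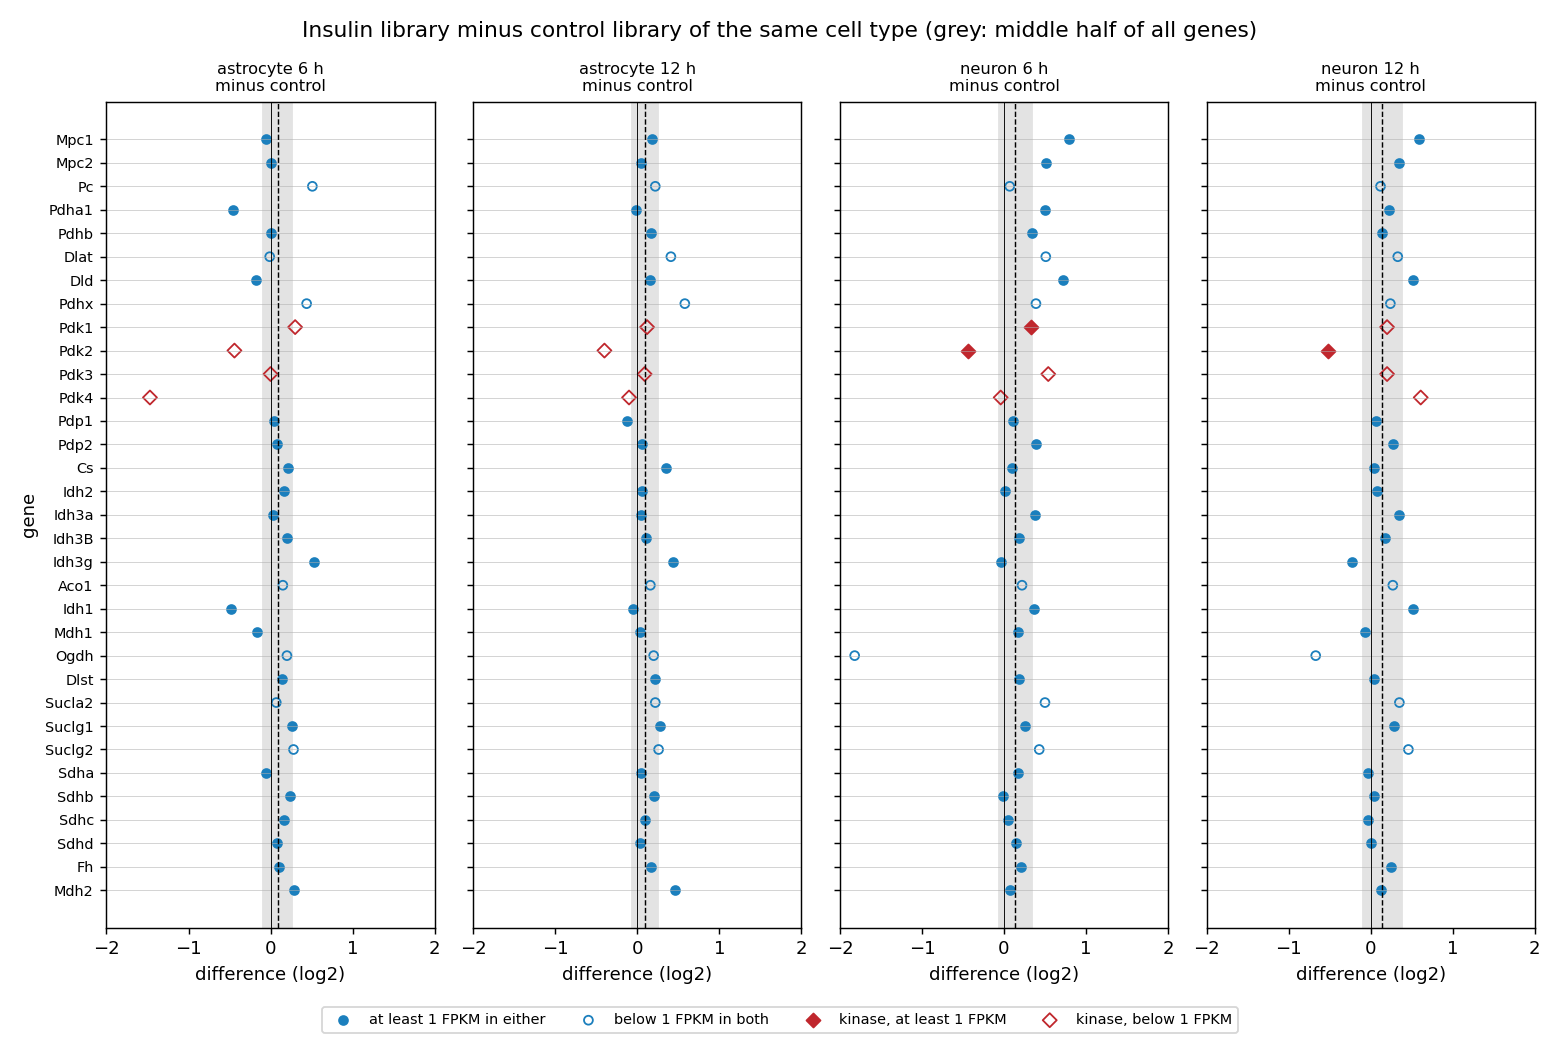
Difference between each insulin library and the control of the same label (log2) for the 33 genes, in 4 panels by label and time. Grey bands span the middle 50% of all genes and dashed lines their medians, red diamonds are the 4 kinases, and open symbols are genes below 1 FPKM in both libraries. Pdk2 lies left of the grey band in every panel, and Mpc1 and Dld lie right of it in both neuron panels.

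The kinases were set against the enzymes because they oppose the complex. They did not move as a group: Pdk2 was below its control in all 4 insulin libraries, Pdk1 above it in all 4, and Pdk3 and Pdk4 were scarce. The 6 h and 12 h differences share a control, and the share of all genes on one side of 0 in all 4 was not counted. In each comparison alone, 66.5% to 73.7% of all genes at any level were above 0. PDK2 is the widely expressed kinase and PDK1 is known as a hypoxia-inducible one. In the astrocyte-labelled libraries Pdk2 was at 0.841, 0.619 and 0.637 FPKM, with differences of -0.44 and -0.40. In the neuron-labelled libraries it was at 1.34, 0.987 and 0.937 FPKM, with differences of -0.44 and -0.52. Each control was above both insulin libraries of the same label. None of the 4 differences reached 1.5-fold as deposited. The differences were set beside genes that passed the filter of 1 FPKM in either library and had a mean level within 2-fold of it. All 4, as deposited, were below the 10th percentile of those genes. That percentile was -0.30 and -0.26 in the astrocyte-labelled and -0.25 and -0.32 in the neuron-labelled comparisons. Centred, the Pdk2 differences were -0.53, -0.49, -0.57 and -0.66, and those of Pdk1 were 0.21, 0.03, 0.21 and 0.06. In the neuron-labelled cultures Pdk2 passed the level filter through its control alone, and in the astrocyte-labelled ones it did not pass. Its place against that percentile is therefore a description and no support for a change.

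Pdk1 was at 0.675, 0.829 and 0.732 FPKM in the astrocyte-labelled libraries and at 0.800, 1.01 and 0.920 FPKM in the neuron-labelled ones. Its differences were 0.30 and 0.12, and 0.33 and 0.20, inside the 90th percentile of genes of like level that passed the filter (0.49, 0.46, 0.60 and 0.66). Within a library, where a shift of all genes plays no part, the log2 ratio of Pdk1 to Pdk2 was -0.32 in the astrocyte-labelled control, 0.42 at 6 h and 0.20 at 12 h. The same ratio was -0.75 in the neuron-labelled control, 0.03 at 6 h and -0.03 at 12 h. Pdk2 thus led in both controls, Pdk1 led in both astrocyte-labelled insulin libraries, and the pair was level in the neuron-labelled ones. The share of Pdk2 in the summed kinase FPKM was 49.1% in the astrocyte-labelled control, 38.0% at 6 h and 40.4% at 12 h. In the neuron-labelled libraries that share was 58.0%, 44.3% and 45.3%.

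Pdk3 was at 0.168, 0.168 and 0.179 FPKM in the astrocyte-labelled libraries and at 0.140, 0.203 and 0.160 FPKM in the neuron-labelled ones. Pdk4, the kinase best known for its fasting response, was at 0.0288, 0.0104 and 0.0269 FPKM and at 0.0326, 0.0316 and 0.0498 FPKM. Its astrocyte-labelled 6 h difference of -1.47 is past 2-fold in size. At any level, however, 13.4% of all genes reached that size there, and the level lies far below 1 FPKM. The value at 12 h was back near control, and in the neuron-labelled cultures the 12 h library was the highest.

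The median difference of the kinases minus that of the enzymes could not be formed at 1 FPKM in the astrocyte-labelled cultures, where no kinase was compared. With no floor it was -0.37 at 6 h and -0.18 at 12 h. In the neuron-labelled cultures, with no floor, all 4 kinases gave -0.04 and 0.06, that is close to 0 at both times. At 1 FPKM it was -0.23 at 6 h, from Pdk1 and Pdk2, and -0.62 at 12 h, from Pdk2 alone. Pdk2 passed that level only in its control, at 1.34 FPKM, and Pdk1 only in the 6 h library, at 1.01 FPKM, each the library where it is highest. The filter therefore fixes the sign of each difference, and nothing about the kinases as a group is read from these values. Between the controls it was 0.22 with no floor and -0.09 at 1 FPKM, the latter from Pdk2 alone, which passed in the neuron-labelled control. Of the 25 enzymes at any level, 19 and 23 were above 0 in the astrocyte-labelled cultures at 6 h and 12 h, and 22 and 20 in the neuron-labelled ones. Over all genes at any level, 66.5% and 68.4%, and 73.7% and 71.2%, were above 0.

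The phosphatases, which restore the active complex, were more abundant than the kinases in every library. Pdp1 was at 3.97, 4.09 and 3.64 FPKM in the astrocyte-labelled libraries and at 4.01, 4.34 and 4.18 FPKM in the neuron-labelled ones, level between labelled cultures and times. Pdp2 was at 2.78, 2.94 and 2.89 FPKM, and at 1.71, 2.25 and 2.07 FPKM, with neuron-labelled differences of 0.39 and 0.27. Summed kinase FPKM was 25.4%, 23.2% and 24.1% of summed phosphatase FPKM in the astrocyte-labelled libraries. In the neuron-labelled ones it was 40.4%, 33.8% and 33.1%, highest in the control.

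**Figure D4:**
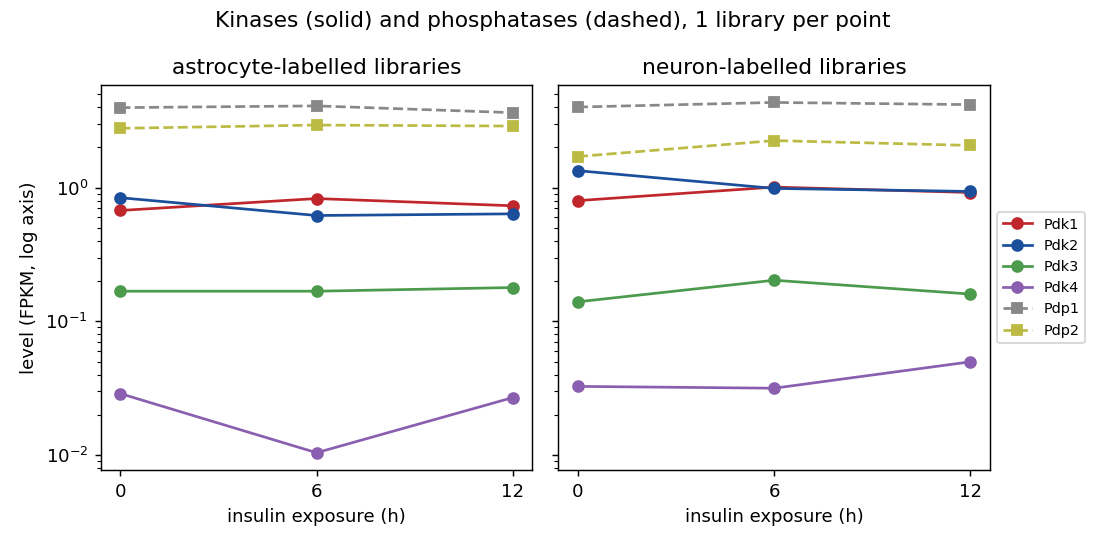
Level (FPKM, log axis) of the 4 kinase genes (solid lines) and the 2 phosphatase genes (dashed lines) at 0, 6 and 12 h of insulin, in astrocyte-labelled (left) and neuron-labelled (right) libraries, 1 library per point. Pdk2 goes from 0.841 to 0.619 and 0.637 FPKM on the left and from 1.34 to 0.987 and 0.937 FPKM on the right, crossing or meeting Pdk1, while both phosphatases lie above all kinases.

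The insulin libraries were also compared with each other, which leaves out the controls. No member reached 2-fold among 22 in the astrocyte-labelled and 23 in the neuron-labelled cultures, where 0.767% and 1.07% of all genes did. In the neuron-labelled cultures the members' median was -0.12, against -0.01 for all genes, and 16 of 23 were below 0, where 51.7% of all genes were. One of the 16, Pdk1, passed the level filter through the 6 h library alone, which fixed its sign. Pdha1 (-0.28), Mdh1 (-0.25), Dld (-0.21), Pdhb (-0.20) and Mpc1 (-0.20) were among those lower at 12 h than at 6 h. In the astrocyte-labelled cultures the median was 0.05, against 0.02, and Pdha1 (0.46), Idh1 (0.43) and Dld (0.33) were higher at 12 h. Pdha1 and Dld thus stood on opposite sides of 0 in the cultures.

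Other genes around the pathway were read from a list of 44, of which 41 were found. In the insulin comparisons between 14 and 18 of them were compared and none reached 2-fold. Over all genes, 1.93% and 1.53% did in the astrocyte-labelled cultures at 6 h and 12 h, and 2.89% and 3.84% in the neuron-labelled ones. With so few genes compared, a count of none is near these shares. The medians of the related genes were 0.23 and 0.16 in the astrocyte-labelled cultures, where those of all genes were 0.09 and 0.10. In the neuron-labelled ones they were 0.14 and 0.03, where all genes had 0.14 at both times. Ldha, the lactate dehydrogenase subunit favoured in glycolytic cells, was at 15.6, 22.5 and 22.2 FPKM and at 9.28, 11.5 and 14.4 FPKM. The monocarboxylate transporter Slc16a1 was at 1.64, 2.38 and 3.25 FPKM in the neuron-labelled libraries, a difference of 0.99 at 12 h. Acly, which turns exported citrate into cytosolic acetyl-CoA, was at 2.06, 2.42 and 2.76 FPKM in the astrocyte-labelled ones. Ppm1k, the phosphatase of the branched-chain dehydrogenase, was at 1.24, 0.741 and 1.27 FPKM there, lowest at 6 h. In the neuron-labelled libraries Dbt, the E2 of that dehydrogenase, was at 0.780, 1.19 and 1.15 FPKM. Dbt thus entered through the insulin libraries alone, and the filter fixed its sign.

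Related genes that reached 2-fold after insulin were all below 1 FPKM. At any level, 13.4% and 13.3% of all genes reached that size in the astrocyte-labelled cultures at 6 h and 12 h. In the neuron-labelled ones 17.3% and 18.5% did. The share among the 39 related genes with values is under this background. The lactate exporter Slc16a3 was at 0.195, 0.587 and 0.436 FPKM in the astrocyte-labelled libraries and at 0.0263, 0.0391 and 0.0529 FPKM in the neuron-labelled ones. The aspartate-glutamate carrier Slc25a13 was at 0.0344, 0.101 and 0.118 FPKM in the neuron-labelled libraries, and Pdha2, the testis form of E1 alpha, at 0.0743, 0.0606 and 0.199 FPKM in the astrocyte-labelled ones. Between the controls, 2 of 18 related genes compared were 2-fold or more up in the astrocyte-labelled library and 4 down, where 40.6% of all genes reached that size in either direction and 21.9% downward. The share of related genes at that size is thus near or under the background. Slc25a13 differed by 5.89, at 2.04 against 0.0344 FPKM, and the cytosolic aspartate aminotransferase gene Got1 by -1.89, at 0.311 against 1.15 FPKM. Ldhb, the lactate dehydrogenase subunit of oxidative cells, was at 0.801 and 9.12 FPKM, and the glutamate carrier Slc25a22 at 0.672 and 2.74 FPKM. Slc25a13, Got1, Ldhb and Slc25a22 each passed the level filter through a single control, which fixed the sign.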

How the data were processed

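A single deposited table was used, in which the authors gave log2 FPKM, quantile-normalised over all 6 libraries. The unit, log and quantile step come from the table's name, and base 2 from the values: the pre-rRNA gene Rn45s (8.679 kb) reached 13.67, or 113107 fragments per library total of the unit as log2 and an impossible 7502196 as natural log. Per the submitters' processing notes, bcl2fastq 2.17.1.14, Partek 6.5 and build Rnor 6.0 were used. Aligner and annotation were not given in the sources used here. Read counts were not used here, so depth is unknown.

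Of 37185 rows, the higher row of each of 2 repeated symbols was kept, and blank cells were treated as no value. The number of unused sample columns was 0. Columns were matched to samples by their description labels. Differences, medians and counts were computed with pandas 2.3.3 in Python 3.11.15, and the script was tested on simulated data. All members may be named. Related genes were named where a difference after insulin reached 1, with the 2 largest per insulin comparison at 1 FPKM or more and the 4 largest between controls. The members and lists were chosen with earlier results of these data known. Some single genes are not reported here. Alternatives were no floor, a floor of 5 FPKM, log2(FPKM + 1), centring, a smaller call size and mitochondrial enzymes only. Promoter windows came from RefSeq, matched by symbol.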

Additional observations from a re-analysis of the deposited data

Results flagged for a closer look

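Of 22 members compared in all 4 insulin comparisons, 3 lay on one side of 0 at both times in the astrocyte-labelled cultures and on the other side at both times in the neuron-labelled cultures, and 22.6% of 4937 genes did so. The share of members is thus under the background, and opposite sides are no trait of the set. The difference between the labelled cultures was not tested, as each value comes from 1 library per group. For Pdha1, the E1 alpha subunit of pyruvate dehydrogenase, the neuron-labelled difference exceeded the astrocyte-labelled one by 0.96 at 6 h. With its FPKM summed with that of its copy Pdha1l1, the astrocyte-labelled difference was -0.39 and the neuron-labelled one 0.13, a gap of 0.52. At 12 h the summed values were 0.01 and -0.11, so Pdha1 then no longer keeps one side of 0 in each labelled culture. For Idh1, the cytosolic isocitrate dehydrogenase, it did so by 0.85. For Idh3g, a subunit of the NAD-linked isocitrate dehydrogenase, the neuron-labelled difference minus the astrocyte-labelled one was -0.56 at 6 h. The Pdha1 differences in the astrocyte-labelled cultures at 12 h (-0.01) and the Idh3g difference in the neuron-labelled cultures at 6 h (-0.03) were close to 0.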

How the results depend on the processing

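With 1 library per group no replicate could be left out, and depth is unknown. No paired analysis was possible because each group has 1 library and no result comes from a test. Of 61 values recomputed under an alternative, 42 moved by less than 0.1 (log2) or, for counts, by no more than 1.5 times. Some of these could not move. Centring shifts kinases and enzymes alike, so kinases minus enzymes stays the same. Where no member was at 2-fold, a floor of 5 FPKM or log2(FPKM + 1) could add none. The tally is therefore no measure of robustness. With a floor of 5 FPKM the members' median was -0.16 for astrocyte-labelled 6 h (0.08 at 1 FPKM) and -0.81 between controls (-0.51). With log2(FPKM + 1) it was -0.36 between controls. Centred on genes at 5 FPKM or more, it was 0.05 for neuron-labelled 6 h and -0.01 for 12 h. The count of members at 2-fold became, with no floor, 1 at astrocyte-labelled 6 h (Pdk4), 1 at neuron-labelled 6 h (Ogdh) and 5 between controls (Idh3B, Idh3g, Sdhd, Pc and Pdhx). With log2(FPKM + 1) it was 1 between controls. At a size of 0.58 it was 2 at neuron-labelled 6 h, 1 at 12 h and 13 between controls. Kinases minus enzymes was, with no floor, -0.04 and 0.06 in neuron-labelled cultures at 6 h and 12 h and 0.22 between controls. With log2(FPKM + 1) it was -0.35 for neuron-labelled 12 h and 0.07 between controls. A floor of 5 FPKM left no kinase to compare. Summed with Pdha1l1, chosen after seeing the data, the Pdha1 difference was 0.13 at neuron-labelled 6 h and -0.11 at 12 h. The alternatives differ in the genes or scale they use, and beyond this the cause was not tested.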

Other observations

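Ogdh, the E1 subunit of oxoglutarate dehydrogenase, was the lowest member in all 6 libraries, at 0.00150, 0.00172 and 0.00172 FPKM in the astrocyte-labelled control, 6 h and 12 h libraries and at 0.00282, 0.000797 and 0.00177 FPKM in the neuron-labelled ones. Its partners in the same complex were far higher in the same libraries, with Dlst at 2.98 to 3.53 FPKM and Dld at 2.06 to 3.38 FPKM. The related row Ogdhl, a brain-expressed form, was at 0.0660, 0.0892 and 0.0760 FPKM and at 0.976, 0.853 and 0.754 FPKM. Whether the Ogdh row holds all reads of that gene was not tested. Ogdhl is named here after its values were seen.

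Aco1, a cytosolic enzyme that also acts as an iron sensor, was at 0.648, 0.717 and 0.724 FPKM and at 0.804, 0.934 and 0.969 FPKM in the astrocyte-labelled and neuron-labelled control, 6 h and 12 h libraries.

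The order of abundance within complexes held in all 6 libraries for succinate dehydrogenase, with Sdhd highest and then Sdhc, Sdha and Sdhb. Within the dehydrogenase complex Dld, Dlat and Pdhx followed Pdha1 and Pdhb in every library. Pdhb stood above Pdha1 in the neuron-labelled control only, at 6.62 against 6.59 FPKM. Of the carrier pair, Mpc1 exceeded Mpc2 by 0.91, 1.18 and 1.14 on the log2 scale in the neuron-labelled control, 6 h and 12 h libraries, and lay within -0.11 to 0.10 of it in the astrocyte-labelled ones. The log2 ratio of Ldha to Ldhb was 4.28, 4.67 and 4.94 in the astrocyte-labelled libraries and 0.02, 0.48 and 1.18 in the neuron-labelled ones.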
